A study of Arabidopsis thaliana with 6 samples.

Results

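The long cluster 5 small RNA (sRNA) loci were the stretches of the Arabidopsis thaliana genome that the deposited table placed in cluster 5 and that were at least 333 bp long. They were chosen by those columns alone, and 265 of the 1633 listed loci qualified. The cluster number was a column of the table, and what distinguished cluster 5 from other clusters was not given in the sources used here. The series compared sRNA of inflorescence tissue from 5-week-old flowering plants in 3 libraries of wild-type Col-0 plants and 3 libraries of ndx1-4. The mutant is a single line in the Col-0 background with a T-DNA insertion in NODULIN HOMEOBOX (NDX), a plant-specific homeobox regulator. Each library came from a pool of RNA from several plants, so more sRNA per cell and more cells of a type making it cannot be told apart. Transcripts of NDX are not measured by sRNA loci, so the genotype labels were not checked here by the targeted gene. The authors genotyped both lines by PCR, and their RT-qPCR barely detected NDX mRNA in ndx1-4. The comparison asks which sRNA loci gain or lose sRNA when NDX is disrupted.

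Most sRNA loci of plants are sources of short interfering RNAs (siRNAs) made by the RNA-directed DNA methylation pathway. RNA polymerase IV and the RNA-dependent RNA polymerase RDR2 make a double-stranded precursor, DCL3 dices it, and AGO4 carries the siRNA to nascent transcripts of RNA polymerase V, where DRM2 methylates cytosines in any context. Transposons and repeats are the best known templates, and short elements near genes are a class kept methylated by this pathway.

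The DNA of 7 loci is shown because the results turn on them. They are the 3 with the highest fold changes, the 3 with the lowest, and last the one with the most counts. Each line is the central 240 bases on the plus strand of the RefSeq TAIR10.1 assembly, with CG dinucleotides, a symmetric methylation context, in capitals.
chr3:7679644-7679883: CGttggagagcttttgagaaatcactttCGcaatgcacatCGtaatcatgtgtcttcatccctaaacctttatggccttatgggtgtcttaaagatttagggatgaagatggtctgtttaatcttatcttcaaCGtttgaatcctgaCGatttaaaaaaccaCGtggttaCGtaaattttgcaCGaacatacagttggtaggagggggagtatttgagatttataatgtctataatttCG
chr5:7185161-7185400: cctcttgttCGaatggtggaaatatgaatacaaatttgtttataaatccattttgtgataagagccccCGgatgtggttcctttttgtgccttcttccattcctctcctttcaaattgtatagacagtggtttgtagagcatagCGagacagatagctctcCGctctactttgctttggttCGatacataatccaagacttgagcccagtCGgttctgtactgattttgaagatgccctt
chr3:1165959-1166198: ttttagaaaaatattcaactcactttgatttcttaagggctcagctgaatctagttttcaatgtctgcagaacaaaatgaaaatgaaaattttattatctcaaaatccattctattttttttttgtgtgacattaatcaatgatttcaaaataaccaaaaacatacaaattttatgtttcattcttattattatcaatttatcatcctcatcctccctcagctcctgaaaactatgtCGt
chr5:19830048-19830287: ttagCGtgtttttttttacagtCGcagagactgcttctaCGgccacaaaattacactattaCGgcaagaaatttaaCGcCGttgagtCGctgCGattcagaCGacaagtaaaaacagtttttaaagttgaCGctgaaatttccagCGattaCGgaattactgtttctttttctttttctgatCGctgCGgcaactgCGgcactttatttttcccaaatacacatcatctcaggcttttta
chr1:6593985-6594224: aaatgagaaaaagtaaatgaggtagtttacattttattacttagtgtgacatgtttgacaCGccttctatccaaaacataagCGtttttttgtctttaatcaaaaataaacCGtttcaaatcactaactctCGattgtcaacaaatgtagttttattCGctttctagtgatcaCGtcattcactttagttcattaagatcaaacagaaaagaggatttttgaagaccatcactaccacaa
chr1:11155127-11155366: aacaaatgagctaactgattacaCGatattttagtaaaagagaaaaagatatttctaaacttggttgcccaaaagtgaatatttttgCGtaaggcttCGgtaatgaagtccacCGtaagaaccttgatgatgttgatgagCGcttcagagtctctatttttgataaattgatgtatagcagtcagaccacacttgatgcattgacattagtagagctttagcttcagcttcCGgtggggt
chr3:10753046-10753285: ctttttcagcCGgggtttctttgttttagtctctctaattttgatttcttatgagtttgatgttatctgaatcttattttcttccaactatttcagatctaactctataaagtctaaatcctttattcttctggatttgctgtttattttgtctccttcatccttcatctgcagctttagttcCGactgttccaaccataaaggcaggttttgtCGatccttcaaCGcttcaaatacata
The windows differed widely in base composition. The third, at a locus with near-identical copies elsewhere, was 72.9% A and T and held 1 CG, whereas the fourth, from the locus with the lowest fold change, held 15.

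The 265 loci held 104880, 107897 and 128907 counts in the Col-0 libraries and 173256, 205643 and 127732 in ndx1-4, which was 4.54 to 5.05% of the listed counts in Col-0 and 5.91 to 7.0% in ndx1-4. All listed loci together held 2276389 to 2553018 counts per library in Col-0 and 2162920 to 2935774 in ndx1-4, which is not the depth of the libraries, because the table keeps only loci that the authors had called different between these same libraries. Every call given here is therefore a repeat on a selected list. Normalised counts are counts divided by a size factor of the library, which placed no change in the middle of the gap that this selection left in the log2 ratios, from -0.22 to 0.23. Loci were called with the edgeR quasi-likelihood test at a Benjamini-Hochberg adjusted p under 0.05 over all 1626 loci tested. All 265 long cluster 5 loci passed the filter on low counts, and 134 of them had at least 200 counts in every library.

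More of the long cluster 5 loci gained than lost sRNA in ndx1-4. All 265 were called, 184 higher and 81 lower, which is 69.4% higher, beside 39.2% called higher and 60.8% called lower among all listed loci. Of the loci that rose, 70 did so by more than 1.5-fold and 114 by less. Of those that fell, 35 did so by more than 1.5-fold and 46 by less. Over all listed loci, 362 (22.3%) rose and 188 (11.6%) fell by more than 1.5-fold. Changes above 1.5-fold in either direction were seen at 39.6% of the long cluster 5 loci and 33.7% of all listed loci. The split of the long cluster 5 loci into higher and lower depends on the scale. TMM takes most listed loci as unchanged and moves the log2 fold changes up by about 0.25. The shift was smaller at loci without counts in one genotype, such as chr3:7679587-7679941 (12.30 to 12.41). With it the same 184 were called higher and 33 of the 81 stayed called lower. Of the calls, 84.8% were then higher, beside 60.6% over all listed loci. On column totals these shares were 89.8% and 84.8%, so the long cluster 5 loci then differed little from all listed loci. The size of the changes depends on it as well, since 162 rose and 19 fell by more than 1.5-fold with TMM, and 184 and 17 on column totals.

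The median log2 fold change of ndx1-4 over Col-0 was 0.41 over the 265 loci and -0.34 over all listed loci. It was 0.52 for the loci that rose and -0.53 for those that fell. The median over the 265 loci was also taken in each library relative to the Col-0 mean. It was 0.409, 0.408 and 0.392 in the ndx1-4 libraries and between -0.041 and 0.037 in Col-0. The loci were listed for differing between these same libraries and most were higher, so this separation is a description. Its size depends on the scale, since the median log2 fold change was 0.66 with TMM and 0.77 on column totals. Libraries of the genotypes did not overlap in normalised count at 250 loci, 183 higher and 67 lower, against 98% of all listed loci. Of the 15 that did overlap, 14 were called lower.

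**Figure D1:**
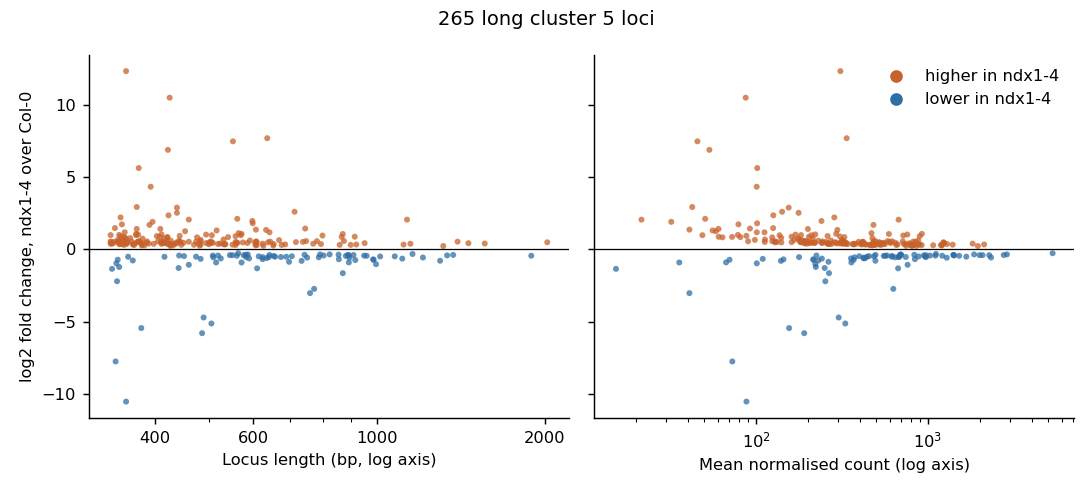
Fitted log2 fold change (ndx1-4 over Col-0) of the 265 long cluster 5 loci against locus length (left, log axis in bp) and mean normalised count (right, log axis), 1 point per locus, coloured by direction. Loci called lower lie towards longer and more abundant loci (median length 640 bp against 442 bp for loci called higher), and the points of 6 loci with almost no counts in one genotype depend on the model and are given as lower limits in the text.

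Whether the summed sRNA of the 265 loci differed between the genotypes depends on the scale. Their normalised counts added up to 128744, 132008 and 141535 in Col-0 and to 137469, 148769 and 136051 in ndx1-4, and the genotypes overlapped. With TMM the sums were 117090 to 129281 in Col-0 and 144618 to 163825 in ndx1-4, without overlap, as they also were on column totals. On the scale used here the loci that rose went from 61117, 60791 and 61582 to 91022, 91632 and 88566. The loci that fell went from 67627, 71217 and 79952 to 46447, 57137 and 47484, and their sums overlapped between the genotypes with TMM. The 81 loci that fell thus held 54.4% of these counts in Col-0 and 35.8% in ndx1-4. Since the loci were placed in these 2 sets by their fold changes, the separation of the sums is a description.

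**Figure D2:**
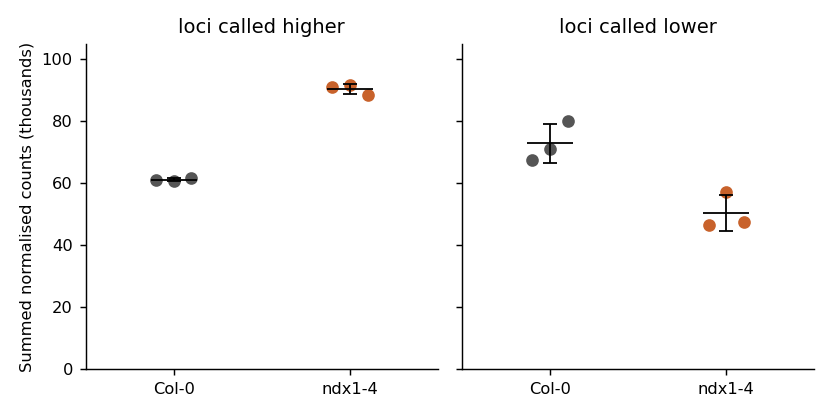
Summed normalised counts of the 184 loci called higher and the 81 called lower in each of the 6 libraries, 1 point per library with the genotype mean and SD as error bars. The higher set lies between 60791 and 61582 in each Col-0 library, and the lower set varies more in both genotypes and overlaps between them with TMM.

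Replicates spread less at the loci that rose. The coefficient of variation of the normalised counts had a median of 9.26% in Col-0 and 5.62% in ndx1-4 at those loci, and of 12.0% and 14.5% at the loci that fell.

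The largest gains were at loci that were silent or nearly so in Col-0. At chr3:7679587-7679941, whose centre is the first sequence printed, the counts were 0, 0 and 0 in Col-0 and 861, 808 and 553 in ndx1-4. The locus lies 165 bp downstream of UGT71B8, a UDP-glucosyl transferase gene. After normalisation ndx1-4 held 619 ± 55.7 counts (SD, n = 3), which exceeds a floor of 3 counts per Col-0 library at least 174-fold, with an edgeR adjusted p of 1.02e-06. At chr5:7185069-7185493, the counts were 0, 0 and 0 against 179, 255 and 184. This locus covers 360 bp of AT5G21125, a gene of an uncharacterised protein, and touches a coding exon of it. The rise there was at least 49.1-fold (adjusted p = 2.41e-05), and no library of one genotype came near the other.

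At chr5:20076014-20076435, the counts were 1, 0 and 1 in Col-0 and 116, 165 and 101 in ndx1-4, at least 30.0-fold higher (adjusted p = 4.32e-06). The locus overlaps 172 bp of AGL83, a MADS-box gene of the AGAMOUS-like family, and touches a coding exon of it. A locus at chr3:19357711-19358262, singled out after its values were seen because it fell below the minimum mean of 50 normalised counts for named loci, had 0, 0 and 1 counts in Col-0 and 88, 142 and 94 in ndx1-4, at least 25.6-fold higher. It lies 450 bp upstream of PHF1, which helps phosphate transporters leave the endoplasmic reticulum. In each of these 4 loci, Col-0 was at or under 1 count per library.

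The locus at chr3:1165761-1166396 was the third highest. Its counts were 3, 4 and 1 in Col-0 and 836, 862 and 678 in ndx1-4. The log2 fold change was 7.68 ± 0.22 (SE, adjusted p = 1.40e-07), from 3.22 ± 1.94 to 670 ± 49.6 normalised counts (SD, n = 3). It reaches 5 bp into AT3G04390, annotated as a molybdopterin-binding protein, and has 4 near-identical copies in the genome (at least 100 bp at 90% identity or more). Reads from such sequence could be counted at more than 1 copy. Of its listed relatives, chr3:451688-452296 had 651, 734 and 704 counts in Col-0 and 1363, 1373 and 913 in ndx1-4, a log2 fold change of 0.30. A further relative at chr4:17624669-17625226 had 506, 517 and 551 against 1521, 1605 and 1071, a log2 fold change of 0.92. Both had sRNA in Col-0, where the first of the 3 had almost none.

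Somewhat above silence in Col-0 were 4 other loci with large gains. At chr4:2569531-2569904, 1094 bp downstream of the F-box gene FBS3, the counts were 4, 4 and 2 against 255, 279 and 182, a log2 fold change of 5.62 ± 0.22 (SE, adjusted p = 5.12e-07). At chr4:6177773-6178165, 422 bp upstream of the nucleotide-sugar transporter gene AT4G09810, they were 9, 14 and 1 against 352, 197 and 145, a log2 fold change of 4.33 ± 0.52 (SE, adjusted p = 0.000262). The genotypes stood far apart at both, although the second varied widely within each. At chr1:9253783-9254220, over 385 bp of AT1G26762, the counts were 55, 16 and 22 against 393, 333 and 249, a log2 fold change of 2.89 ± 0.34 (SE, adjusted p = 0.000259). At chr3:7764495-7765206, wholly inside AT3G22050, a gene of a cysteine-rich repeat secretory protein, they were 35, 23 and 44 against 268, 365 and 239, a log2 fold change of 2.60 ± 0.19 (SE, adjusted p = 1.96e-05). In these, too, every ndx1-4 library lay above every Col-0 library.

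**Figure D3:**
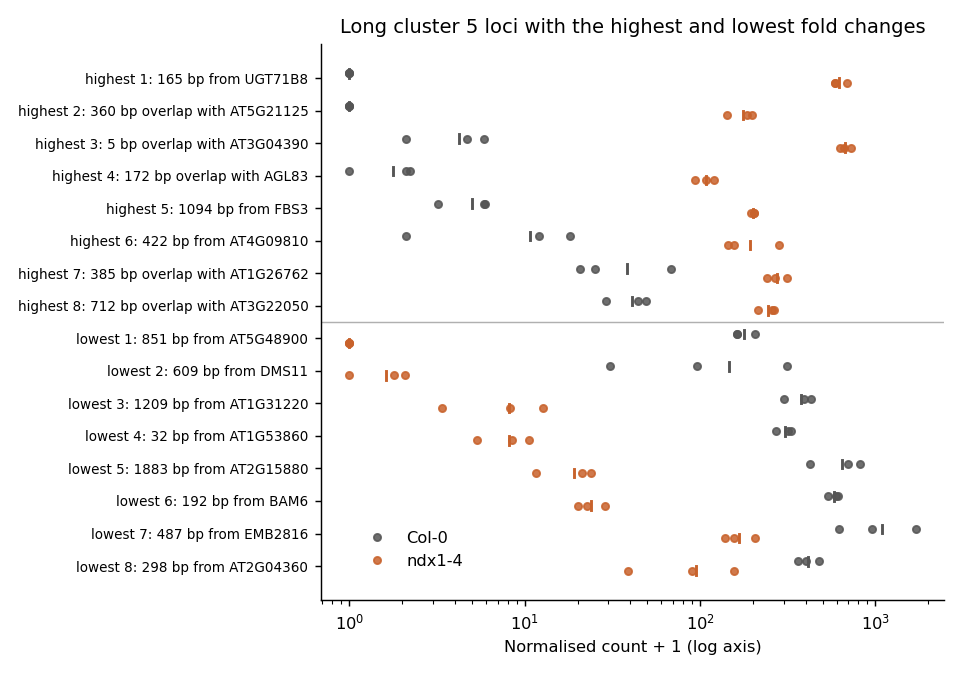
Normalised count plus 1 (log axis) in each of the 6 libraries at the 8 long cluster 5 loci with the highest and the 8 with the lowest fold changes, labelled by the nearest protein-coding gene, with vertical bars at the genotype means. The genotypes do not overlap at any of the 16, which the choice of loci required.

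Gains next to genes with known roles in nutrition and RNA biology are given here as examples singled out after their values were seen. At chr4:7800565-7801697, all 1133 bp of which lie in HAK5, the high-affinity potassium transporter gene of roots, the counts were 217, 203 and 246 in Col-0 and 1315, 1773 and 878 in ndx1-4. The log2 fold change was 2.06 ± 0.12 (SE, adjusted p = 6.34e-06). At chr1:8154159-8154505, 363 bp upstream of FRO3, a ferric reductase gene, the counts were 89, 67 and 102 against 672, 644 and 384, a log2 fold change of 2.21 ± 0.15 (SE, adjusted p = 1.26e-05). At chr2:12136486-12136945, 245 bp upstream of DRB2, whose product is a double-stranded RNA-binding protein of sRNA biogenesis, they were 11, 3 and 7 against 51, 43 and 31, a log2 fold change of 2.06 ± 0.37 (SE, adjusted p = 0.00129). The genotypes did not overlap at these loci, the last of which had few counts.

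The largest losses left almost no sRNA in ndx1-4. At chr5:19829991-19830345, the fourth sequence printed and rich in CG, the counts were 132, 132 and 186 in Col-0 and 0, 0 and 0 in ndx1-4. The locus lies 851 bp downstream of AT5G48900, a pectin lyase-like gene. Its Col-0 level was 176 ± 24.5 normalised counts (SD, n = 3), and ndx1-4 was at least 68.1-fold lower (adjusted p = 1.04e-05). At chr1:6593935-6594274, the counts were 77, 254 and 27 against 1, 0 and 1. This locus lies 609 bp upstream of DMS11, also called MORC6, an ATPase needed for transcriptional gene silencing. The fall was at least 56.1-fold (adjusted p = 0.00123), but Col-0 was uneven, at 145 ± 147 normalised counts (SD, n = 3).

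At chr1:11155004-11155489, 1209 bp upstream of the formyl transferase gene AT1G31220, the counts were 245, 321 and 391 against 3, 10 and 11. The log2 fold change was -5.77 ± 0.31 (SE, adjusted p = 2.99e-06), and the genotypes were widely separated. At chr1:20106608-20106985, 32 bp downstream of the remorin gene AT1G53860, the counts were 256, 221 and 299 against 12, 6 and 7, a log2 fold change of -5.42 ± 0.22 (SE, adjusted p = 5.19e-07). At chr2:6915127-6915631, overlapping the non-coding RNA gene AT2G06505, they were 342, 570 and 739 against 29, 28 and 10, a log2 fold change of -5.11 ± 0.33 (SE, adjusted p = 8.76e-06). At both, a small remainder was left in each ndx1-4 library.

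Next to BAM6, a beta-amylase gene, the locus at chr2:13717194-13717682 overlaps the pseudogene AT2G32291 and lies 192 bp upstream of the coding gene. Its counts were 436, 501 and 545 in Col-0 and 24, 30 and 26 in ndx1-4, a log2 fold change of -4.69 ± 0.14 (SE, adjusted p = 1.68e-07), with little spread in either genotype. The locus at chr2:1178713-1179484, 487 bp upstream of EMB2816, a gene of the small nuclear ribonucleoprotein family, had 775, 505 and 1552 counts against 257, 213 and 130, a log2 fold change of -2.72 ± 0.36 (SE, adjusted p = 0.000341). The locus at chr2:1521421-1521762, 298 bp upstream of AT2G04360, had 328, 295 and 431 against 112, 52 and 145, a log2 fold change of -2.19 ± 0.38 (SE, adjusted p = 0.00114). The genotypes did not overlap at either, though their libraries differed more among themselves. Over all long cluster 5 loci, 16 rose and 9 fell by more than 4-fold, together 9.4% of them. Among all listed loci 88 rose and 32 fell by more than 4-fold, together 7.3%. Among the shorter cluster 5 loci 37 rose and 13 fell by more than 4-fold, together 19.1%, so changes of this size were more frequent there.

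The most abundant loci were all lower, and only slightly. At chr3:10752884-10753447, the last sequence printed and 1361 bp upstream of the protein kinase gene AT3G28690, the counts were 4503, 4979 and 5191 in Col-0 and 5767, 7104 and 4487 in ndx1-4. As normalised counts these were 5773 ± 289 and 4831 ± 285 (SD, n = 3), a log2 fold change of -0.26 ± 0.07 (SE, adjusted p = 0.00703). Raw counts were thus higher in most ndx1-4 libraries, and the direction rests on the scale. On column totals the value turned to 0.10 and was not called.

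At chr1:17111763-17112585, 3177 bp from the glycosyl hydrolase gene BGLU1, the counts were 2614, 2546 and 3014 against 2725, 3967 and 2432, a log2 fold change of -0.34 ± 0.10 (SE, adjusted p = 0.00992) that turned to 0.02 on column totals. At chr2:8103687-8104896, 4002 bp upstream of the trehalose phosphatase/synthase gene TPS11, they were 2081, 2113 and 2877 against 2167, 3088 and 1593, a log2 fold change of -0.55 ± 0.12 (SE, adjusted p = 0.00351). Normalised counts of the genotypes did not overlap at these loci. At chr4:5281580-5282487, in a pericentromeric bin, the counts were 2366, 2370 and 3231 against 2932, 3865 and 1930, a log2 fold change of -0.38 ± 0.12 (SE, adjusted p = 0.0154). At chr4:6275792-6276368, 580 bp upstream of the cytochrome c gene CYTC-2, they were 1818, 2115 and 2657 against 2234, 3193 and 1692, a log2 fold change of -0.39 ± 0.13 (SE, adjusted p = 0.0149), and the genotypes overlapped. Without Col-0 replicate 3 these last 2 were not called (adjusted p = 0.0834 and 0.0805), and none of the 5 was called with TMM. Together the 5 held 11.3% of the normalised counts of the 265 loci.

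Direction went with length. Lengths ran from 333 to 2022 bp around a median of 504 bp. Divided at the quartiles of length, 57 of 67 were higher in the shortest band (333 to 390 bp) and 57 of 66 in the next (391 to 504 bp). Among loci of 505 to 653 bp it was 42 of 66, and among those of 657 to 2022 bp 28 of 66. The share higher was thus 85.1, 86.4, 63.6 and 42.4%, and the median log2 fold change 0.50, 0.49, 0.38 and -0.37. These are descriptions of loci that share libraries and were selected on them. With TMM the shortest band had 57 called higher and 9 lower, and the longest 28 higher and 11 lower, or 71.8% higher. On column totals the shares among the calls came close, at 87.7 and 82.4%.

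The 262 shorter cluster 5 loci continued the pattern of the shorter bands. Between 84.8 and 92.3% of them were higher in each of their own 4 length bands, 231 higher and 30 lower of those tested, with a median log2 fold change of 0.70. The minimum length does not mark a step. Just inside it, the 333-bp locus at chr1:690-1022, at the very start of the chromosome, had 271, 235 and 313 counts against 566, 602 and 358, a log2 fold change of 0.39. The 333-bp locus at chr3:8684270-8684602 had 85, 97 and 130 against 302, 361 and 215, a log2 fold change of 0.99. Both were higher, as were most loci of their length.

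Just outside, the 331-bp locus at chr1:20032784-20033114 had 37, 58 and 30 against 177, 230 and 125, a log2 fold change of 1.57. It borders the long cluster 5 locus at chr1:20033115-20033728, which had 704, 598 and 721 against 713, 848 and 506, a log2 fold change of -0.47. The neighbours were thus called in opposite directions, and both have near-identical copies elsewhere. The 328-bp locus at chr4:10247949-10248276 had 69, 27 and 96 against 3, 1 and 0, at least 28.8-fold lower.

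**Figure D4:**
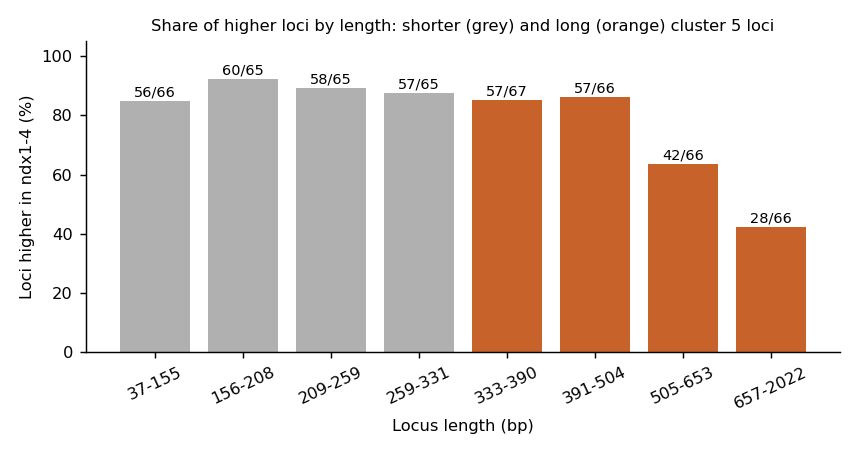
Share of loci called higher in ndx1-4 (percent, from 0) in 4 bands by length each of the shorter cluster 5 loci tested (grey) and the 265 long ones (orange), with the number higher of the number in the band above each bar. The share is near 85% in the shortest band of the long loci and 42.4% in the longest, where it was 71.8% of the calls with TMM.

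Longer loci were also more abundant, and abundance went with direction as well. The share higher fell from 80.6% in the least abundant band to 51.5% in the most abundant. When loci were divided at both medians, the short ones were 85.2% higher at low abundance and 86.4% at high abundance. The long ones were 68.2% higher at low abundance (30 of 44) and 46.1% at high abundance (41 of 89). On the scale used here, abundance thus went with direction mainly among the longer loci. With TMM only 33 loci were called lower, and none of the most abundant loci named above was called.

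The longest locus of all went against this trend. At chr1:237377-239398, 2022 bp long and overlapping 529 bp of SPPL4, a signal peptide peptidase-like gene, the counts were 333, 333 and 433 against 717, 818 and 625. The log2 fold change was 0.50 ± 0.09 (SE, adjusted p = 0.00167), and the genotypes did not overlap. The next longest, chr4:2050657-2052549 with 1893 bp, had 523, 512 and 616 against 591, 749 and 403, a log2 fold change of -0.43 ± 0.09 (SE, adjusted p = 0.00303). With TMM the second was not called.

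The long cluster 5 loci lay near genes. Of the 265, 87.9% overlapped a protein-coding gene or lay within 2000 bp of one, against 52.4% of all listed loci and 87.0% of the shorter cluster 5 loci, and the median distance was 376 bp against 1524 bp for all. Pericentromeric bins were 500 kb bins with under 0.5 times the median gene coverage of their chromosome. They held 12.1% of the long cluster 5 loci, against 44.1% of all listed loci and 9.2% of the shorter cluster 5 loci. Upstream positions were the most frequent, with 112 loci within 2000 bp and 62 of them within 500 bp, and 66 lay downstream within 2000 bp. A gene was overlapped by 55, of which 39 touched a coding exon and 16 an untranslated exon. A further 14 overlapped a pseudogene and 13 a non-coding RNA gene only.

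Loci in or upstream of genes were higher more often than those far from them. Of those overlapping a gene 42 were higher and 13 lower, of those upstream 86 and 26, of those downstream 41 and 25, and of the 32 beyond 2000 bp 15 and 17. With TMM 90.5% of the calls upstream and 65.2% of those beyond 2000 bp were higher, and on column totals 91.5 and 88.2%. Over all listed loci, 268 upstream were higher and 114 lower, against 66 and 711 beyond 2000 bp, a wider contrast. Among the shorter cluster 5 loci these were 96 and 10 upstream, and 29 and 5 beyond, so most were higher at both. For the long cluster 5 loci, the median distance to a gene was 284 bp for those that rose and 565 bp for those that fell. In pericentromeric bins 20 were higher and 12 lower. All 5 chromosomes had more higher than lower loci, from 58.3% higher on chromosome 4 to 77.8% on chromosome 3.

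**Figure D5:**
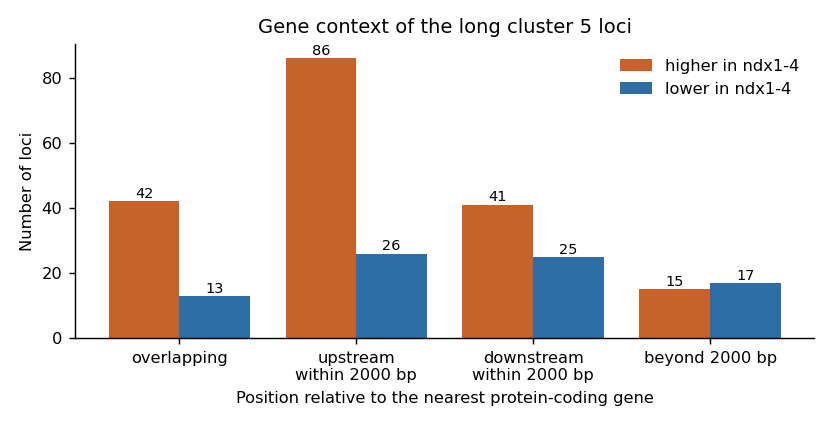
Number of long cluster 5 loci called higher and lower in ndx1-4 by position relative to the nearest protein-coding gene. Upstream loci are the largest set (86 higher and 26 lower), and beyond 2000 bp 15 were higher and 17 lower, where 65.2% of the calls were higher with TMM.

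None of the 28 genes of a fixed list of silencing and DNA methylation genes and known silenced targets, which held the genes of the pathway named above as well as NDX, FLC, FWA and SDC, had a long cluster 5 locus inside it or within 2000 bp. The nearest were at AGO4, 2121 bp away, and at CLSY2, a chromatin remodeller that guides RNA polymerase IV, 2265 bp away. The locus near AGO4, at chr2:11544512-11545069, had 352, 326 and 408 counts against 652, 742 and 498, a log2 fold change of 0.31 ± 0.07 (SE, adjusted p = 0.00420). The locus near CLSY2, at chr5:6906507-6906933, had 151, 135 and 180 against 351, 399 and 248, a log2 fold change of 0.60 ± 0.10 (SE, adjusted p = 0.00111). Both were higher in ndx1-4 without overlap, and both lie closer to another gene.

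Base composition differed somewhat between the directions among the long cluster 5 loci. The median GC content was 32.9% for loci that rose and 31.8% for those that fell, against 35.2% over all listed loci. Cytosines in the CG context, counted on both strands, had a median of 4.88 per 100 bp at loci that rose and 3.75 at those that fell. In the CHG context (H is A, C or T), counted likewise, the medians were 3.77 and 3.11. Those of the asymmetric CHH context were close, at 23.8 and 24.3. The order for GC content was reversed over all listed loci (32.0% higher, 36.4% lower) and among the shorter cluster 5 loci (31.8 and 32.8%). For CG the medians were close over all listed loci (4.72 and 4.83) and kept their order among the shorter ones (4.98 and 3.37). For CHG they kept their order over all listed loci (3.85 and 3.47) and reversed among the shorter ones (3.53 and 4.59).

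Near-identical copies elsewhere in the genome were found for 63 of the 265 loci (23.8%), against 57.4% of all listed loci. The share among the shorter cluster 5 loci was similar, at 22.5%. Direction did not go with copies, since 69.8% of the loci with a copy and 69.3% of those without were higher. Families with more than 1 long cluster 5 locus numbered 5, with 12 loci in all. In 4 of them all loci were higher, and in 1 the 3 loci had log2 fold changes of 0.34, -0.47 and 0.54.

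Long cluster 5 loci within 5000 bp of each other moved the same way. There were 9 such loci, 5 higher and 4 lower. At chr1:17856241-17863376 the 3 loci had log2 fold changes of 0.57, 0.76 and 0.39, whereas the pair that starts at chr1:20466158 had -0.47 and -0.54. With any listed locus as the neighbour, 20 of 26 higher and 8 of 12 lower loci had a neighbour of the same direction. Among all listed loci 39.2% were called higher and 60.8% lower, and among the long cluster 5 loci 69.4 and 30.6%. Whether neighbours shared a direction beyond these shares was not tested.

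Inverted repeats, which can fold into a hairpin and give double-stranded RNA without RDR2, were present in 2 of the 265 loci (at least 50 bp at 80% identity or more), and direct repeats in 5. The arms of 1 of them are printed because such a repeat was rare among these loci, the right arm as its reverse complement, with the bases identical between the arms in capitals.
chr2:6655991-6656049 (left arm): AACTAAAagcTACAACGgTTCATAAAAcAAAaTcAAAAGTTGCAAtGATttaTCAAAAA
chr2:6656293-6656347 (right arm, reverse complement): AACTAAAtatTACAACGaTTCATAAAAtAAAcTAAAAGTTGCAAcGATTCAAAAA
The arms share 48 bases and lie 243 bases apart. Their locus, chr2:6655697-6656583, had 1298, 1186 and 1558 counts against 1338, 1815 and 1209, a log2 fold change of -0.38 ± 0.10 (SE, adjusted p = 0.00556). The locus was lower in ndx1-4 on this scale and was not called with TMM. No direction is drawn from it for loci with inverted repeats.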

How the data were processed

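The authors trimmed adapters with Cutadapt, selected reads by sRNA size, aligned them with sRNAnalyzer to a published catalogue of sRNA loci and tested the loci with DESeq2. The deposited table holds raw counts per locus and library on TAIR10 coordinates, for loci with an adjusted p under 0.05 only. Its fold change, p-value and direction columns are the authors' results and were not used. Several alignments per read were allowed, so repeated sequence may be counted more than once.

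Size factors came from the counts alone. Within a genotype they were median-of-ratios factors over the 999 loci in which no library held fewer than 200 counts, and between genotypes 1 offset (0.47 on the log2 scale) set to 0 the centre of the empty interval of log2 ratios. On 5 simulated lists this missed the simulated scale by at most 0.00544. Those lists took their fold changes from the fit on this same scale, so the empty interval was built into them. They cannot show that the scale is right for these data. All 6 libraries were fitted by genotype with edgeR 4.0.16 in R 4.3.3 (filterByExpr, two-sided quasi-likelihood test, Benjamini-Hochberg adjustment); 7 loci were removed. Size factors were 0.815 to 0.911 in Col-0 and 0.939 to 1.38 in ndx1-4. Lower limits of a fold used a floor of 3 counts per library and cover counting error only. Repeats and copies were searched with BLAST+ 2.17.0, and genes were taken from the RefSeq annotation of TAIR10.1. Replicate pairs differed beyond counting noise (chi-square per degree of freedom 5.44 to 21.3), so none was a duplicate.

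The loci and gene lists were chosen with earlier results of these data known. Named were loci with no overlap and a mean normalised count of 50 or more that had the 8 highest and 8 lowest fold changes, the 5 most abundant, the 2 longest, those at the length limit, those by a listed gene and those with inverted repeats; others are marked in the text. The second locus with an inverted repeat is not reported here. Alternatives were other scales, DESeq2 1.42.0, filters, thresholds, a replicate block, leaving out each library, and leaving out copies.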

Additional observations from a re-analysis of the deposited data

How the results depend on the processing

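The library scale mattered most. The 184 loci called higher were the same under all 3 other scales, and none called in one direction was called in the other. TMM gave 33 called lower, 162 above 1.5-fold higher, 19 above 1.5-fold lower, a median of 0.66 and 416 listed loci lower. Median-of-ratios gave 33, 165, 19, 0.67 and 365. Column totals gave 21, 184, 17, 0.77 and 115, and 5 of the 81 lower loci changed sign, among them chr3:10752884-10753447 (0.10) and chr1:17111763-17112585 (0.020). These scales moved the log2 fold changes up by about 0.25, 0.26 and 0.36, which is how they differ by construction. Loci without counts in one genotype moved by less. The longest length band was 71.8, 71.8 and 82.4% higher under them.

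Leaving out 1 library at a time gave 181 to 184 higher and 62 to 81 lower (62 without Col-0 replicate 3), 71 to 82 above 1.5-fold higher, 30 to 44 above 1.5-fold lower, a median of 0.37 to 0.43, and 630 to 638 higher and 913 to 989 lower among all listed loci.

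At an adjusted p under 0.01, 173 were higher and 59 lower. Under DESeq2, no filter and other settings of the scale the calls were 184 and 81. With at least 10 counts in every library 174 and 75 of 249 were called, without copies 140 and 62 of 202. With the replicate number as a block 184 were higher and 81 lower. Libraries with the same number did not deviate together (correlations of -0.18, -0.08 and -0.39). Libraries of different numbers were not compared in this way, so these values cannot tell whether the numbers mark shared preparation. Read depth is not given by the table, and loci with few counts can show only large changes.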
